A study of Homo sapiens and Mus musculus with 76 samples.

Results

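Single HEK293T cells prepared with variant 1 of Smart-Seq2 were compared with single HEK293T cells prepared with Smart-Seq2 itself. The libraries were chosen by the protocol named in their labels, which gave 8 cells of variant 1 and 7 cells of Smart-Seq2, 15 of the 76 libraries of the series. HEK293T is a human embryonic kidney line that carries the SV40 large T antigen. The study profiled cells of several origins with the commercial SMARTer chemistry, called SMART-Seq in the labels, and with an optimized full-length protocol, Smart-Seq2, and variants of it. Cells of both groups were lysed in the buffer of the SMARTer kit. How variant 1 departs from Smart-Seq2 is not given in the sources used here. HEK293T cells of variant 2 (8 cells), variant 3 (6), variant 4 (6) and SMART-Seq (4), and 3 Smart-Seq2 libraries made from 100 HEK293T cells each, served as reference values.

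Smart-Seq2 copies polyadenylated RNA into cDNA from an oligo-dT primer. At the end of the transcript the reverse transcriptase adds a few untemplated cytosines, a template-switching oligonucleotide pairs with them, and the enzyme copies the oligonucleotide as well. Every full-length cDNA then carries a known sequence at both ends and can be amplified by PCR before it is cut into a sequencing library. Losses at priming, reverse transcription or template switching leave transcripts of a cell undetected, and PCR multiplies unevenly what was captured.

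The labels give no culture, plate or day for any cell, so the cells of a protocol were treated as a single sample and no test between the protocols was made. A level is given in CPM, the reads of a gene per 1000000 gene reads, from the reads of all cells of a group summed, with an exact 95% Poisson interval where one is printed. Such intervals cover counting error only, since PCR copies of a molecule were not told apart. Cells are numbered within each protocol. The numbers in the sample titles of variant 1 all lay above those of Smart-Seq2, so the series in which the cells were numbered and the protocol cannot be told apart.

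Libraries of variant 1 held 7.37 to 14.5 M gene reads (M, 1000000) and those of Smart-Seq2 5.29 to 16.6 M. Of the 20 listed kidney and neural markers of HEK293T cells, 13 averaged at least 10 CPM, among them IGF2BP1, an RNA-binding protein of embryonic cells, at 273 CPM in variant 1 and 198 CPM in Smart-Seq2. None of the listed B cell, T cell, macrophage or endothelial markers averaged 10 CPM, while 3 fibroblast markers and 1 muscle marker did. Smart-Seq2 cell 2 stood apart from the other cells. It was the shallowest library, its median correlation with the other Smart-Seq2 cells was 0.41 against 0.59 to 0.68 for the other 6, and 31.9% of its reads came from its 100 most abundant genes. Genes of mitosis took 3.67% of its reads, while in the other 14 cells the list of mitosis genes took 0.472% to 1.61%. Where they were recounted, results that it decides are given with and without it.

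The number of genes that a cell yielded was alike in the 2 protocols. After each cell was reduced to 5 M reads, at which no cell was lost, a variant 1 cell showed 10809 to 12315 genes with a read (median 11734.5; 11646 ± 523, SD, n = 8 cells). A Smart-Seq2 cell showed 10226 to 12398 (median 11769; 11504 ± 717, SD, n = 7 cells). The ranges overlapped almost wholly, and the difference between the medians was smaller than either SD. The lowest Smart-Seq2 value was that of cell 2, which the SD of 717 includes. Without it the Smart-Seq2 cells ran from 11058 to 12398 genes, so their lowest cell lay above the lowest of variant 1. At the same depth the median cell had 11778 genes in variant 2, 10974 in variant 4, 8710.5 in variant 3 and 9258.5 in SMART-Seq. The 100 most abundant genes took 15.5% to 26.5% of the reads of a variant 1 cell and 14.2% to 31.9% of those of a Smart-Seq2 cell. Without Smart-Seq2 cell 2 the highest Smart-Seq2 share was 21.9%.

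Detection was also alike for weakly and strongly expressed genes. Genes were binned by their level in the libraries of 100 cells, which hold the same line at a far higher input. Of the 1173 genes at 1 to 2 CPM there, the median variant 1 cell had a read for 44.0% (34.4% to 53.0%) and the median Smart-Seq2 cell for 45.1% (34.4% to 53.4%). Of the 1865 genes at 10 to 20 CPM, the shares were 92.0% (83.6% to 93.8%) and 90.7% (75.5% to 94.5%). For the same genes the median cell of SMART-Seq had a read for 66.3% and that of variant 3 for 65.4%. The range of each protocol overlapped that of the other in every bin, and the lowest Smart-Seq2 value from 2 CPM upwards lay below the lowest of variant 1. The bins were not recounted without Smart-Seq2 cell 2, which had the fewest genes of any cell of the 2 protocols.

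**Figure D1:**
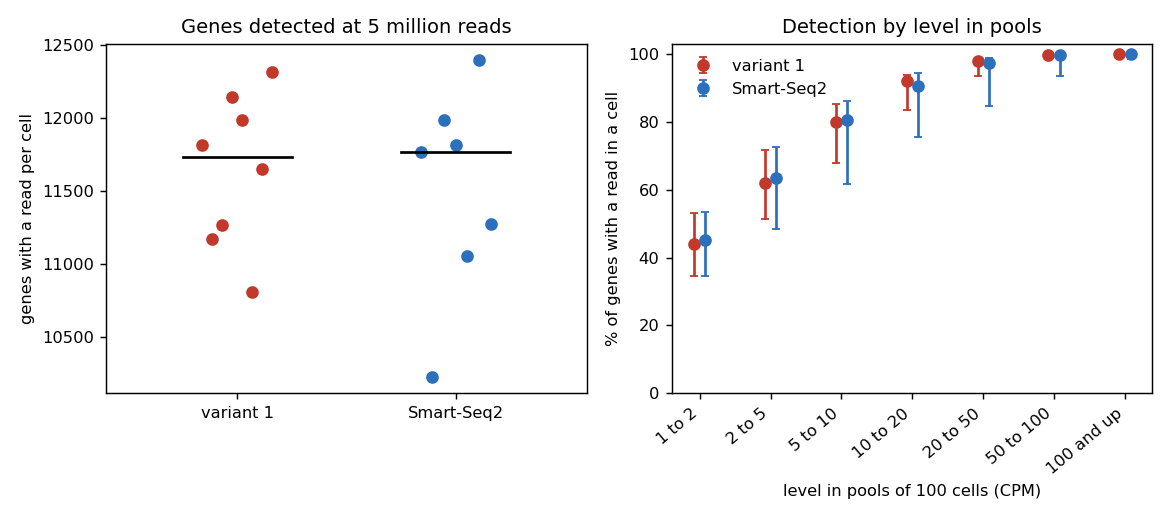
Genes with at least 1 read per cell at 5 M reads (left, 1 point per cell, line at the median) and percentage of genes with a read per cell by their level in the libraries of 100 cells (right, points are medians over cells, bars run from the lowest to the highest cell). The medians of 11734.5 and 11769 genes lie side by side, and both protocols pass from about 44.0% and 45.1% of genes at 1 to 2 CPM to nearly all genes at 100 CPM and above.

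A total of 7682 genes had a read in every variant 1 cell and 7238 in every Smart-Seq2 cell, with 6284 in both. The order turned without Smart-Seq2 cell 2, when 8269 genes had a read in every remaining Smart-Seq2 cell, and 6912 in every remaining cell of both protocols. Leaving out any other Smart-Seq2 cell gave 7327 to 7602, and leaving out 1 variant 1 cell gave 7779 to 8124 in variant 1. Such a count can only rise as cells are left out, so counts over unequal numbers of cells are not like for like. No gene was present in every variant 1 cell and absent from every Smart-Seq2 cell. One gene, TDGF1P3, a pseudogene of the developmental growth factor gene TDGF1, did the reverse: it was at 0 reads in all variant 1 cells, also before thinning, and at 0.245 to 3.33 CPM in the Smart-Seq2 cells. It was at 0 in variant 2 as well and at 0.0267 CPM in variant 4. The other genes with the largest differences in detection were also weak. PAX7, a transcription factor of the neural crest and muscle stem cells, had a read in 6 variant 1 cells and no Smart-Seq2 cell, and GNAT2, a transducin of cone photoreceptors, likewise. In the other direction, ARRDC2, an arrestin-domain protein, had a read in 1 variant 1 cell and in all 7 Smart-Seq2 cells, where it ranged from 1.27 to 25.8 CPM (8.13 CPM summed). PPP1R3D was the strongest, at 1.95 CPM summed in variant 1 and 16.2 CPM in Smart-Seq2. At 5 M reads it had a read in 1 variant 1 cell and in all 7 Smart-Seq2 cells.

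Levels were close across the transcriptome. Among the 9155 genes with a mean of at least 10 CPM over the 2 groups, 73.9% lay within 1.5-fold of each other, the median log2 ratio of variant 1 over Smart-Seq2, with 1 CPM added to each level, was -0.01, and the middle of the distribution ran from -0.33 to 0.31. Pearson's r of the summed levels was 0.92 across these genes, which are not independent replicates. A total of 349 genes (3.81%) were at least 2-fold higher in variant 1 and 506 (5.53%) at least 2-fold lower, together 9.34%. Most of these were weak: of 2488 genes at 100 CPM or more, 7 were at least 2-fold higher and 32 lower. A single cell held the majority of the reads of its group in 19 of the 349 genes and in 48 of the 506.

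**Figure D2:**
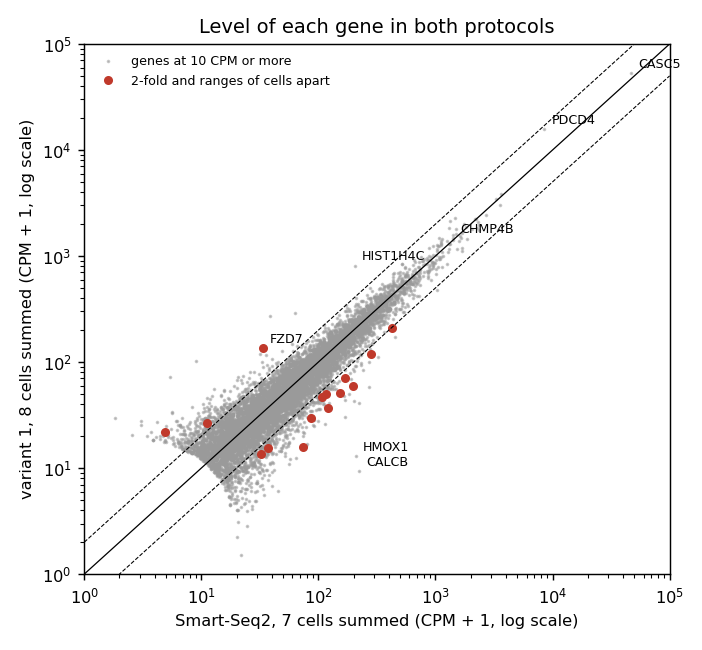
Level of each of 9155 genes in Smart-Seq2 (7 cells summed, CPM + 1, log scale) and in variant 1 (8 cells summed, CPM + 1, log scale), with lines at equality and at 2-fold. Larger points are the 15 genes past 2-fold whose ranges of cells did not overlap, of which 3 lie above and 12 below the line of equality.

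For a gene past 2-fold, the ranges over cells were called apart where the lowest cell of the higher protocol exceeded the highest cell of the lower. Among all genes compared, 3 were apart and higher in variant 1 (0.0328%) and 12 apart and lower (0.131%). FZD7, a Frizzled receptor for Wnt ligands, was the highest of the 3 in level. Variant 1 cells ran from 101.2 to 188 CPM (median 135) and Smart-Seq2 cells from 27.2 to 44.3 CPM (median 31.7). Summed, it was at 134.7 CPM (132.4 to 137.1) and 32.4 CPM (31.2 to 33.7), a log2 ratio of 2.02, and leaving out any cell kept the ratio between 1.93 and 2.12. The 2 others were weaker and were singled out after their values were seen. AXL, a receptor tyrosine kinase, had 19.4 to 39.4 CPM in variant 1 cells and 5.80 to 18.8 CPM in Smart-Seq2 cells, and was past 2-fold with ranges apart in 3 of 5 other ways of scaling or summing the cells. TADA2B, an adaptor of the SAGA histone acetyltransferase complex, had 10.1 to 52.4 CPM and 0 to 8.16 CPM.

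The lower genes had varied roles. SNRNP70, the 70K protein of the U1 splicing particle, had 9.43 to 90.9 CPM in variant 1 cells (median 55.7) and 129 to 286 CPM in Smart-Seq2 cells (median 178). Its log2 ratio was -1.73. ELAVL1, which binds and stabilises AU-rich messages, had 116 to 256 CPM and 326 to 470 CPM, a log2 ratio of -1.01 that became -0.90 without variant 1 cell 7. It was past 2-fold with ranges apart in 1 of 5 other ways of scaling or summing the cells. RPS2, a protein of the small ribosomal subunit, had 76.6 to 152 CPM and 194 to 343 CPM, a log2 ratio of -1.23. It has processed pseudogenes in the genome, and how reads with several matches were counted is not given in the sources used here.

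Among the other lower genes, IKBIP, an interactor of the IKB kinase IKBKB, had the largest ratio of the 12, with 0 to 41.0 CPM in variant 1 cells and 45.4 to 94.6 CPM in Smart-Seq2 cells (log2 ratio -2.23). GNB2, a beta subunit of heterotrimeric G proteins, had 22.2 to 49.5 CPM and 63.5 to 285 CPM (log2 ratio -1.71). PNPLA2, the triglyceride lipase ATGL, had 3.89 to 108.2 CPM and 112.3 to 303 CPM. RNPEP, an aminopeptidase, had 14.6 to 75.5 CPM and 77.2 to 238 CPM. The ranges of IKBIP, PNPLA2, RNPEP, AXL and TADA2B parted by a few CPM or less. Log2 ratios of PNPLA2, ZNF318 (a zinc finger protein), RAB4A (a GTPase of endosome recycling), RNPEP and C12orf75 lay between -1.56 and -1.19. GSR, which reduces glutathione, and SAT2, an acetyltransferase, were the 2 weakest genes of the 12, at 12.6 and 14.4 CPM in variant 1 and 31.0 and 36.2 CPM in Smart-Seq2.

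**Figure D3:**
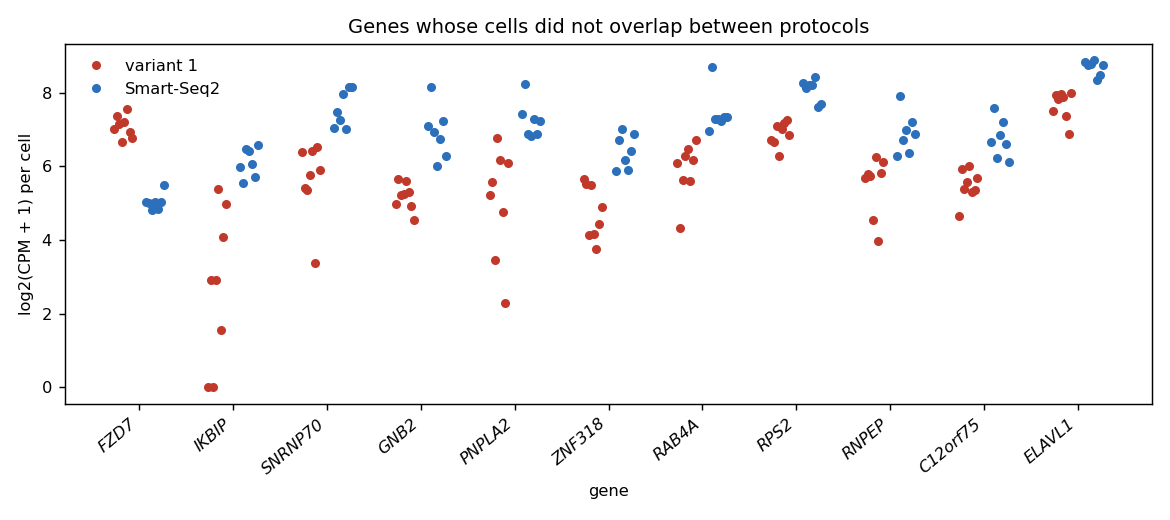
Level of each cell, as log2(CPM + 1), for the 11 genes with at least 50 CPM in the higher protocol whose ranges of cells did not overlap (8 variant 1 and 7 Smart-Seq2 cells each). FZD7 is the only one of them higher in variant 1, and IKBIP includes variant 1 cells with no read.

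The number of genes with ranges apart moved with single cells. Leaving out a cell can only narrow the range of its group. Without Smart-Seq2 cell 2 the count of lower genes was 27, and without any other cell it was 12 to 18. The count of higher genes was 7 without Smart-Seq2 cell 6, 6 without variant 1 cell 4 or 7, and 5 without variant 1 cell 5 or 8 or Smart-Seq2 cell 1, 2 or 4.

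The same 11 genes were placed in the other protocols, each cell being set against the 2 ranges. The genes were chosen because their cells parted in these 2 protocols, and all but FZD7 were lower in variant 1. The variant 1 range of IKBIP began at 0 CPM, so cells without a read fell in it. The counts therefore describe these genes only and do not show which protocol another group resembles. In variant 2, 62 of 88 values fell in the variant 1 range and 7 in the Smart-Seq2 range. In variant 4 the numbers were 14 and 31 of 66, in variant 3 they were 15 and 1 of 66, and in SMART-Seq 17 and 3 of 44. SNRNP70 summed to 42.2 CPM in variant 2 and 183 CPM in variant 4, and FZD7 to 121 and 73.7 CPM. The title numbers of variant 2 spanned those of variant 1, and those of variants 3 and 4 lay partly among those of Smart-Seq2. What the title numbers count is not given in the labels, and their part in these levels was not tested. The libraries of 100 cells, labelled Smart-Seq2, had a summed level in the variant 1 range for 8 of the 11 genes and in the Smart-Seq2 range for 2 (IKBIP and RPS2).

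CASC5 and PDCD4 took the largest shares of reads in both protocols. CASC5, also called KNL1, is a scaffold of the kinetochore, and PDCD4 is an inhibitor of translation initiation. CASC5 took 0.475% to 12.8% of the reads of a variant 1 cell (median 4.54%) and 1.19% to 12.4% of those of a Smart-Seq2 cell (median 5.27%). The lowest share was that of variant 1 cell 7 and the highest that of variant 1 cell 6, so the spread within a protocol exceeded any difference between them. PDCD4 took 3.88%, 4.51% and 5.53% of the reads of variant 1 cells 1, 2 and 3 and 0.0659% to 0.771% of those of the other 5. In Smart-Seq2 cells it took 0.189% to 2.30%. Summed, CASC5 had a log2 ratio of 0.17 and PDCD4 of 0.87.

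The same genes took far smaller shares at higher input and in SMART-Seq. CASC5 was at 52897 CPM in variant 1 and 47049 CPM in Smart-Seq2, and at 46.6 CPM in the Smart-Seq2 libraries of 100 cells. It was at 117 CPM in SMART-Seq cells, 15030 CPM in variant 3 and 12317 CPM in variant 4. In variant 3, CASC5 took 17.2% of the reads of cell 5, 1.82% of those of cell 6 and 0.00251% to 0.0153% of those of the other 4. PDCD4 was at 161 CPM in the libraries of 100 cells, 331 CPM in SMART-Seq, 411 CPM in variant 3 and 4423 CPM in variant 4. In variant 2 both genes were higher than in variant 1 and Smart-Seq2, CASC5 at 58437 CPM and PDCD4 at 24746 CPM.

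**Figure D4:**
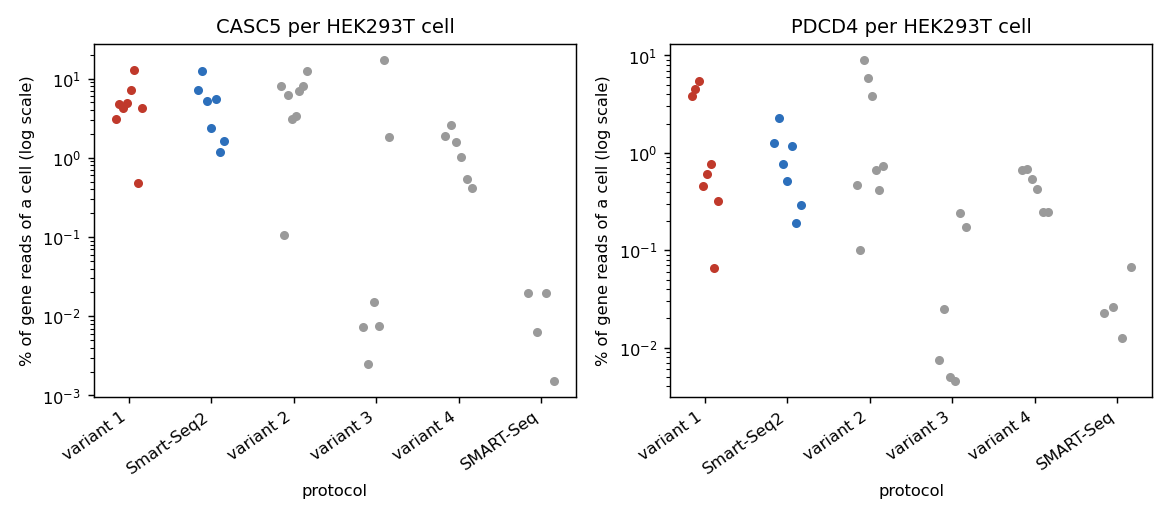
Share of the gene reads of each HEK293T cell (in %, log scale) taken by CASC5 (left) and PDCD4 (right) in 6 protocols, 1 point per cell. Variant 1 and Smart-Seq2 cells lie between 0.475% and 12.8% for CASC5, and PDCD4 splits the variant 1 cells into 3 at 3.88% or above and 5 at 0.771% or below.

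CASC5 and PDCD4 belonged to a set of 12 genes that both protocols gave at 20-fold or more over the libraries of 100 cells, with 1 CPM added to each level, a rule chosen after their values were seen. These were 80.0% of the 15 such genes of variant 1 and 52.2% of the 23 of Smart-Seq2. CHMP4B, a subunit of the ESCRT-III complex that cuts membrane necks, was at 1469 CPM in variant 1 and 1422 CPM in Smart-Seq2. It was at 1553 CPM in variant 2, 3.19 CPM in the libraries of 100 cells and 5.70 CPM in SMART-Seq. KLHL11, a substrate adaptor of a ubiquitin ligase, was at 165 and 185 CPM against 3.12 CPM, and SF3A2, of the U2 splicing particle, at 79.4 and 83.2 CPM against 1.06 CPM. POLR2A, the largest subunit of RNA polymerase II, and GANAB, a glucosidase of the endoplasmic reticulum, were 26.2 and 28.6 times their level in the libraries of 100 cells in variant 1 and 27.4 and 28.1 times in Smart-Seq2. Of the 12 genes, LLGL1, a cell polarity protein, differed most between the 2 protocols, with a log2 ratio of -0.95, and none passed 2-fold. Among the 9155 genes compared, 0 were 20-fold or more below the libraries of 100 cells in both protocols. The filter of 10 CPM was set on the single cells, so genes lost in them were mostly not compared. The count therefore does not show how many genes were lost.

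Some histone genes were higher in 3 of the 8 cells of variant 1 than in any Smart-Seq2 cell, and high levels were also found in other protocols. Replication-dependent histone messages are made in S phase and end in a stem-loop in place of a poly(A) tail, so an oligo-dT primer reaches mainly the few that are polyadenylated. Of the 67 listed histone genes, 7 averaged at least 10 CPM, 4 of them at least 2-fold higher in variant 1 and 0 lower. HIST2H2AC, one of the 4, reached that mean through variant 1 alone, so the filter fixed part of this count and it was not set against the share of all genes. Leaving out 1 cell gave 3 (without variant 1 cell 7) to 6 (without variant 1 cell 8) higher. Their median log2 ratio was 1.45, 0.97 without variant 1 cell 7, and -0.59 where the median cell stood for the group instead of the summed reads. HIST1H4C, a histone H4 gene, read 212, 126, 1547, 289, 1491, 115, 2549 and 153 CPM in variant 1 cells 1 to 8. In Smart-Seq2 cells 1 to 7 it read 188, 484, 138, 73.4, 476, 81.0 and 136 CPM. Variant 1 cells 3, 5 and 7 were above every other cell, and the remaining 5 lay within the Smart-Seq2 range. HIST1H4C cells ran from 20.8 to 3789.5 CPM in variant 2 (1355 CPM summed), from 179 to 3415 CPM in variant 4 (2052 CPM) and from 205 to 1019 CPM in SMART-Seq (605 CPM), and the libraries of 100 cells summed to 1344 CPM. Levels above every Smart-Seq2 cell were thus not particular to variant 1.

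Cells 3, 5 and 7 were also the 3 highest variant 1 cells for HIST1H2AH (histone H2A), HIST1H1C and HIST1H1E (linker histones H1) and HIST2H2AC (H2A), and in each of these 5 genes all 3 exceeded every Smart-Seq2 cell. HIST1H1E read 128, 103.4 and 100.1 CPM in those 3 cells, 5.12 to 14.4 CPM in the other variant 1 cells and 2.24 to 37.4 CPM in Smart-Seq2 cells. HIST2H2AC read 45.4, 30.1 and 66.3 CPM in them and at most 7.98 CPM in Smart-Seq2 cells. HIST3H2A and HIST1H2BK did not share the order. HIST1H3E (histone H3), among the genes with the largest differences in detection, had no read in any variant 1 cell, which allows up to 0.0402 CPM summed, and 0.0900 to 15.9 CPM in Smart-Seq2 cells (median 0.544). HIST3H2A was high in cell 3 alone, at 193 CPM, and HIST1H2BK, which is also made as a polyadenylated message outside S phase, read 24.3 to 64.4 CPM in variant 1 and 19.8 to 220 CPM in Smart-Seq2. Without variant 1 cell 7 the log2 ratio of HIST1H4C was 1.36 in place of 2.00, and that of HIST2H2AC 1.96 in place of 2.57.

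**Figure D5:**
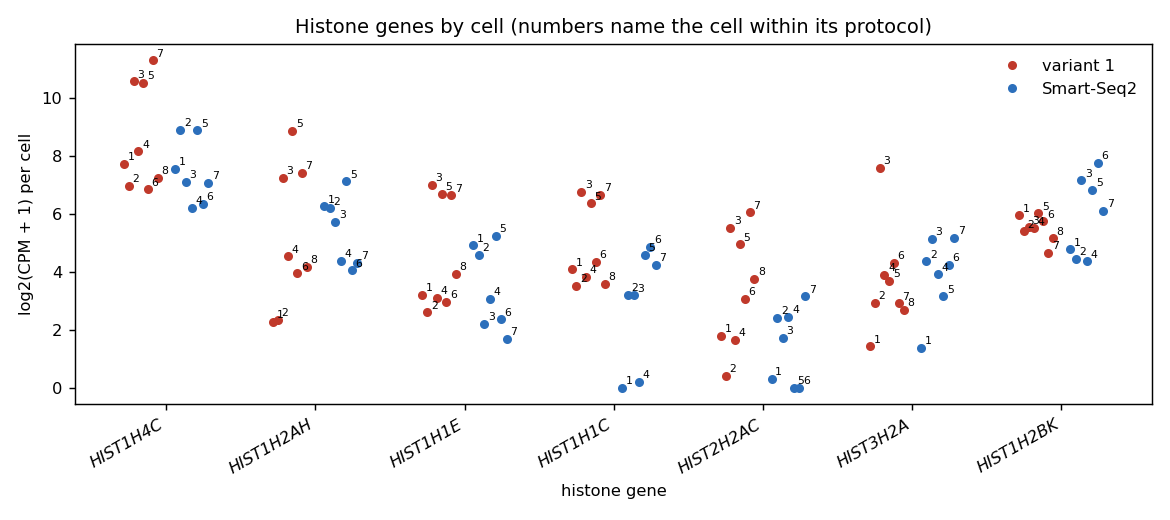
Level of each cell, as log2(CPM + 1), for the 7 histone genes with at least 10 CPM, with the number of the cell beside its point. Variant 1 cells 3, 5 and 7 are the highest in 5 of the 7 genes, and HIST1H2BK is highest in Smart-Seq2 cells.

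The genes of the list S phase and replication were set beside the histones for each cell. They took 0.816%, 1.14% and 0.770% of the reads of variant 1 cells 3, 5 and 7, the 3 highest shares of variant 1, and 0.298% to 0.630% in the other 5. In Smart-Seq2 the highest shares were 0.879% in cell 6 and 0.717% in cell 3, and HIST1H4C stood at 81.0 and 138 CPM there. The variant 1 cells with the highest S phase shares were those with the highest HIST1H4C, and the Smart-Seq2 cells with the highest shares were not. Of the 24 genes of the list, 0 were at least 2-fold higher in variant 1 and 1 lower (4.17%, against 5.53% of all genes compared). A log2 ratio above 0 was found for 22 (91.7%, against 49.3% of all genes), with a median of 0.24 that was 0.01 without variant 1 cell 5. The lower gene was CDT1, a licensing factor for replication origins, at 27.2 CPM in variant 1 and 90.6 CPM in Smart-Seq2 (log2 ratio -1.70). The part of the cell cycle and of the protocol in the histone levels was not tested.

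Upstream sequence of the histone genes is shown to set genes that were high in the same 3 cells beside one that was not. RefSeq's table (build GRCh38.p14) held 5 of the 7 genes; HIST1H4C and HIST1H2AH were not matched. The 200 bases before the annotated start were searched on both strands for CCAAT, for the TATA box as TATAAA and for the octamer ATTTGCAT, which is a known element of histone H2B promoters, and capitals mark each match. CCAAT was in 5 of the 5 windows and in 28.9% of 27305 windows of that length, TATAAA in 3 and in 8.92%, and ATTTGCAT in 2 and in 1.32%. No matches overlapped. A match describes the letters and is no sign of binding.
HIST1H1E (chr6:26156129-26156328, plus strand): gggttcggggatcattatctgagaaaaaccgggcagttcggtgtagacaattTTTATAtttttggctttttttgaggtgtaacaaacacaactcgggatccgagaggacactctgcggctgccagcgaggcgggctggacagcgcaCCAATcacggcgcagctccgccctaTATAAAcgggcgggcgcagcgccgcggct
HIST1H1C (chr6:26056471-26056670, minus strand): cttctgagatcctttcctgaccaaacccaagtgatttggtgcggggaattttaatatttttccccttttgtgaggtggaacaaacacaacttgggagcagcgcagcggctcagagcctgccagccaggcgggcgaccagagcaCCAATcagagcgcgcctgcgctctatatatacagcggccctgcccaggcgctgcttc
HIST2H2AC (chr1:149886718-149886917, plus strand): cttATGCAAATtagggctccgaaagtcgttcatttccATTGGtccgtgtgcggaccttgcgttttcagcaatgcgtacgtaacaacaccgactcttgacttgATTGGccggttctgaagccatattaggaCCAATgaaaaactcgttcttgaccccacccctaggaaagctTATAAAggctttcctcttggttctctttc
HIST1H2BK (chr6:27146859-27147058, minus strand): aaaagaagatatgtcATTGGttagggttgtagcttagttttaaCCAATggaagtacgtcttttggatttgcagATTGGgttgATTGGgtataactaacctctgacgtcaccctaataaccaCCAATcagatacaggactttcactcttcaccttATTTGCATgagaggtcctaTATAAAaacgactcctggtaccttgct
The first 3 are genes that were high in variant 1 cells 3, 5 and 7, and HIST1H2BK is one that was not. The window of HIST1H2BK holds all 3 motifs, as that of HIST2H2AC does. HIST3H2A, high in cell 3 alone, was also matched, and its window, which is not shown, holds CCAAT only.

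Genes of protein synthesis and energy metabolism differed little. Of all genes compared, 3.81% were at least 2-fold higher in variant 1 and 5.53% lower. Of 77 cytosolic ribosomal protein genes, 0 were at least 2-fold higher and 1 lower (RPS2, above), with a median log2 ratio of -0.19. A ratio below 0 was found for 71.4% of them, against 50.7% of all genes. RPL8, a protein of the large subunit, was at 1973 CPM in variant 1 and 2352 CPM in Smart-Seq2. Of 76 mitochondrial ribosomal protein genes, 0 were higher and 1 lower, MRPL23 at 62.1 and 144 CPM, with a median of 0.12 (-0.05 without variant 1 cell 7). None of the 80 nuclear genes of oxidative phosphorylation passed 2-fold (median 0.14, and -0.03 without variant 1 cell 7), nor any of 33 proteasome subunits (0.16), 37 translation factors (-0.02) or 16 heat shock chaperones (0.01). A ratio above 0 was found for 70% of the oxidative phosphorylation genes and 75.8% of the proteasome subunits, against 49.3% of all genes. The shares were 60.5% for mitochondrial ribosomal proteins, 45.9% for translation factors and 50% for heat shock chaperones. HSP90AA1, a cytosolic chaperone, was at 2216 CPM and 2237 CPM, with cells from 1658 to 2751 and from 1535 to 2900.4 CPM.

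In cholesterol synthesis 4 of 18 genes were at least 2-fold lower in variant 1 and 0 higher, 22.2% against 5.53% of all genes compared, with a median log2 ratio of -0.38. Leaving out 1 cell gave 2 (without Smart-Seq2 cell 1) to 5 (without variant 1 cell 8) lower genes. MVK, mevalonate kinase, was at 12.8 CPM in variant 1 and 35.2 CPM in Smart-Seq2 (log2 ratio -1.39). INSIG1, which retains the sterol sensor in the endoplasmic reticulum, was at 478 and 1039 CPM, but Smart-Seq2 cell 1 alone read 3978 CPM. Without that cell its log2 ratio was 0.94 in place of -1.12. Among genes of the endoplasmic reticulum, 1 of 17 was higher (5.88%, against 3.81% of all genes) and 2 were lower (11.8%, against 5.53%). The higher gene was DNAJB9, a co-chaperone (log2 ratio 1.41, and 0.89 without variant 1 cell 7). XBP1, the transcription factor of the unfolded protein response, was the lowest, at 42.5 CPM in variant 1 (cells from 2.97 to 96.98) and 166 CPM in Smart-Seq2 (cells from 13.4 to 374).

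Of 9 immediate early genes, 1 was higher and 0 lower. The higher gene, EGR1, reached a mean of 10 CPM through variant 1 alone. The filter thus fixed part of this count, which was not set against the share of all genes. The median log2 ratio of the 9 genes was -0.15, and 0.47 without Smart-Seq2 cell 7. EGR1, a growth-factor-induced transcription factor, was at 70.8 CPM in variant 1, with cells from 0 to 189 CPM (median 55.2), and at 4.40 CPM in Smart-Seq2, with cells from 0.121 to 31.4 CPM (median 0.226). Its log2 ratio was 3.73, 3.20 without variant 1 cell 4 and 4.38 without Smart-Seq2 cell 2. CTGF, a matrix-associated protein induced by YAP signalling, was likewise uneven, at 0.167 to 403 CPM in variant 1 cells and 0 to 29.8 CPM in Smart-Seq2 cells, a log2 ratio of 3.51 (3.08 without variant 1 cell 3 and 4.25 without Smart-Seq2 cell 5). EGR1 was at 24.7 CPM in variant 2 and 0.0400 CPM in variant 4. MYC did not follow, at 298 CPM in variant 1 and 539 CPM in Smart-Seq2.

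Other large ratios with overlapping ranges moved to differing degrees with single cells. TIMP1, an inhibitor of metalloproteinases, read 1941 CPM in variant 1 cell 2, and its log2 ratio of 2.19 was 0.85 without that cell. HMOX1, heme oxygenase, read 1372 CPM in Smart-Seq2 cell 5, and its ratio of -4.01 was -0.29 without it. CALCB, a calcitonin-related peptide, read 1901 CPM in Smart-Seq2 cell 6, and its ratio of -4.57 was -1.42 without it. SLC7A5, a transporter of large amino acids, was at 8.20 to 80.8 CPM in variant 1 cells and 0.757 to 597 CPM in Smart-Seq2 cells (log2 ratio -2.41, from -2.70 to -1.93 with a cell left out). ICK, a kinase of the primary cilium, was at 0 to 39.1 CPM and 0.122 to 164 CPM (log2 ratio -2.37, from -2.86 to -1.81, the latter without Smart-Seq2 cell 5). ZDHHC17, a palmitoyltransferase, was higher in variant 1, at 10.6 to 93.7 CPM against 2.49 to 38.2 CPM (log2 ratio 2.14, from 1.94 to 2.38). SHISA2, an endoplasmic reticulum protein that dampens Wnt and FGF receptors, was at 1.502 to 888 CPM against 0.151 to 216 CPM (log2 ratio 2.82, 2.02 without variant 1 cell 8 and 3.94 without Smart-Seq2 cell 6).

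Among mitosis genes 0 of 30 were at least 2-fold higher (against 3.81% of all genes) and 1 lower (3.33%, against 5.53%). A log2 ratio below 0 was found for 22 (73.3%, against 50.7% of all genes), with a median of -0.15 that was 0.04 without Smart-Seq2 cell 2. The lower gene was CENPA, the histone H3 of centromeres, whose log2 ratio of -2.11 was -1.32 without that cell and -2.82 without variant 1 cell 6. Zinc finger genes, a large family of mostly weak transcripts, had 21 of 267 higher (7.87%, against 3.81% of all genes) and 25 lower (9.36%, against 5.53%). ZNF615 was at 26.1 and 3.15 CPM, and ZNF525 at 0.502 and 21.0 CPM, each with cells at or near 0 in both protocols. Both reached a mean of 10 CPM through 1 protocol alone. The filter thus fixed part of the zinc finger counts, and their shares are no measure of an excess. The kidney and neural markers had 2 of 13 higher and 0 lower, and 3 higher without Smart-Seq2 cell 2, 5 or 6. TUBB3, a tubulin of neurons and 1 of the 2, was at 24.5 CPM in variant 1 and 5.62 CPM in Smart-Seq2, and its cells overlapped. It reached a mean of 10 CPM through variant 1 alone. The filter thus fixed part of the marker count, which was not set against the share of all genes.

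Variation between cells depended on Smart-Seq2 cell 2. The median SD over cells of log2(CPM + 1), over the 9155 genes, was 0.936 in variant 1 and 1.24 in Smart-Seq2. Without Smart-Seq2 cell 2 it was 0.936 and 0.849, so the order turned. Pairs of variant 1 cells correlated at 0.57 to 0.69 (median 0.64, 28 pairs), pairs of Smart-Seq2 cells at 0.37 to 0.71 (median 0.63, 21 pairs) and pairs across protocols at 0.40 to 0.71 (median 0.64, 56 pairs). Without Smart-Seq2 cell 2 the medians were 0.64, 0.65 and 0.64. Cells of the same protocol were thus about as alike as cells of different protocols; the pairs share cells and are a description.

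The ratio of the protocols hardly followed transcript length or base composition. Across genes, Spearman's rho of the log2 ratio was 0.02 with transcript length, -0.06 with GC content (both 9111 genes) and -0.05 with the GC content of the first 50 bases, where template switching takes place (7634 genes, 83.4% matched). When the genes were split into 5 bins by GC content, in the richest bin, from 56.9% to 76.3%, 8.29% were at least 2-fold lower in variant 1 and 3.40% higher, while in the other bins 4.50% to 5.54% were lower. Without Smart-Seq2 cell 2 the share lower in that bin was 8.72%, and 4.66% to 5.93% in the others. SNRNP70, GNB2 and PNPLA2, with 64.8%, 64.4% and 64.9% GC, belong to it, while IKBIP has 41.1% and RAB4A 39.3%. By length, of the longest 1822 genes 5.93% were at least 2-fold higher in variant 1 and 5.76% lower, and of the shortest 1823 genes 2.03% were higher and 3.73% lower, with median log2 ratios of 0.02 and 0.00.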

How the data were processed

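Count tables per gene, as deposited by the authors, hold whole numbers of reads per RefSeq entry beside RPKM (reads scaled to transcript length and library size), per the file headers. The submitters' processing notes name the aligner STAR, without a version, and hg19 among the builds. No source used here states the counting rule or strand setting. The members and the 28 gene lists were chosen with earlier results of these data known.

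Counts of the 24249 entries were summed to 23571 symbols. Levels are CPM of the summed cells. Genes with a mean of at least 10 CPM were compared, and log2 ratios use 1 CPM added. Detection was counted after thinning without replacement to 5 M reads (M, 1000000). No pair of cells was a copy. Genes named are the 12 largest ratios in each direction with ranges apart and the 4 with ranges overlapping (at least 50 CPM), the 10 highest, the highest and extreme genes of each list, and the 6 with the largest detection difference, of which the text gives those that matter. Transcript length and GC content come from GENCODE release 29 by RefSeq accession. edgeR 4.0.16 and DESeq2 1.42.0 gave alternative scaling factors only, in R 4.3.3; the rest used Python 3.11.15 with scipy 1.17.1. The calculation of the ratio was run on simulated counts with known changes. Their spread between cells was not matched to that of the data, so this checks the calculation only. The authors' deposited RPKM served as an alternative.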

Additional observations from a re-analysis of the deposited data

Results flagged for a closer look

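A cell was singled out where its gap to the nearest cell of its protocol was a large part of the whole range (Dixon's 95% value). Of 270 sets of cells examined, 44 had such a cell. The nominal rate of about 1 in 20 is no yardstick for that count. The sets share the same cells and include genes named for their values in these cells. Some of those genes had no read in most cells of a group. Whether 44 exceeds chance was not tested. Of the 44, 20 were Smart-Seq2 cell 2.

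Smart-Seq2 cell 2 was the highest of its group for the summed list of giant cytoskeletal and motor proteins (7897 CPM, group median 3501) and for PNPLA2 (303 CPM), RAB4A (413 CPM) and ALDOC (95.2 CPM). It was the lowest for the summed lists of S phase and replication (1060.25 CPM, group median 5425), immediate early genes (71.9 CPM, median 1094), mitochondrial ribosomal proteins (6107 CPM), small nucleolar RNA host genes (377 CPM) and translation factors (8649 CPM). It was also the lowest for SRSF1, a splicing factor (43.1 CPM, group median 1293), CANX, a lectin chaperone (146 CPM, median 1111), MCM7 (201 CPM), RPL38 (139 CPM), MRPL3 (101.2 CPM), EIF2S3 (37.8 CPM), SNHG16 (24.97 CPM), MIR17HG (14.0004 CPM), CDT1 (5.87 CPM), SLC7A5 (0.757 CPM) and SRSF8 (0.757 CPM). Its depth was the lowest of the 15 cells, and the part of depth in these values was not tested.

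Among the other Smart-Seq2 cells, cell 5 was high for HMOX1 (1372 CPM), SEMA3G (38.8 CPM) and GIPC2 (0.540 CPM), cell 3 for ARHGEF10 (18.6 CPM), cell 4 for the summed endothelial markers (14.3 CPM) and cell 7 for FZD7 (44.3 CPM) and MRPL39 (143 CPM). Cell 6 was low for SNHG7 (13.9 CPM) and ANK3 (4.40 CPM).

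In variant 1, cell 7 was the lowest for CASC5 (4754 CPM, group median 45445) and for BUB1B, a spindle checkpoint kinase (291 CPM, median 1663), and low for MTRNR2L2 (5.96 CPM) and its summed list of humanin-like copies (27.8 CPM). It was the highest for MRPL39 (316 CPM). Cell 2 was high for TIMP1 (1941 CPM) and PPP1R3D (20.2 CPM) and low for RAB4A (19.2 CPM), the summed fibroblast markers (2.16 CPM) and ALDOC (0 CPM). Cell 6 was low for SNRNP70 (9.43 CPM) and cell 3 for PMVK (19.9 CPM). Cell 5 was high for ZNF525 (2.50 CPM). Cell 1 was high for SEMA3G (0.570 CPM) and ARRDC2 (0.114 CPM), both near the level of a few reads.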

How the results depend on the processing

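Alternatives were TMM or median-of-ratios factors, the mean or median cell, 5 CPM added, RPKM, other filters, each cell left out and, chosen after seeing the data, CASC5 and PDCD4 left out of the totals. The median log2 ratio of all genes moved by under 0.1 in each. The 349 higher genes became 539 by the median cell, 204 with 5 CPM added, 120 in RPKM, 1254 with no filter and 29 from 50 CPM. The 506 lower genes became 308 in RPKM, 1388 with no filter and 115 from 50 CPM. Of the 3 higher genes with ranges apart, 1 was left from 50 CPM. Leaving out 1 cell gave 339 to 467 higher and 496 to 636 lower genes, and with ranges apart 3 to 7 and 12 to 27. Of the 15 genes with ranges apart, all recurred in at least 4 of 5 other scalings or summaries except AXL (3), ELAVL1 (1) and GSR (1). Median genes per cell in variant 1 and Smart-Seq2 were 10488 and 10453 at 500000 reads, 10779 and 10754 with at least 5 reads, and 10208.5 and 10132 at an RPKM of 1. Leaving out 1 cell gave medians of 11653 to 11816 and of 11522 to 11793.5, differing by -116 to 212.5, and median SDs of 0.883 to 0.942 and 0.849 to 1.27. The 10 most abundant genes took 9.65% and 8.72% of the reads and the 1000 most abundant 52.6% and 52.7%; for the 100, leaving out 1 cell gave 19.5% to 20.3% and 17.9% to 19.9%. Correlations with length ran from -0.00483 to 0.106 and with GC from -0.0707 to -0.0260. The histone median turned to -0.59 by the median cell, and INSIG1 to 0.53 by the median cell and by leaving out 1 cell ran from -1.52 to 0.94 (without Smart-Seq2 cell 1); the cause was not tested. Of 2222 log2 ratios of named genes, 28 moved by more than 1 SD between cells and 2 more turned sign. That SD is wide beside the shift of a summed ratio, so the count does not show that the ratios were stable. For SHISA2 the SDs were 2.79 in variant 1 and 2.67 in Smart-Seq2, and leaving out 1 cell took its log2 ratio from 2.82 to 3.94. No paired analysis was possible because the labels give the cells no shared replicate numbers. Depth limits genes under about 1 CPM.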
